A study of Mus musculus with 40 samples.

Results

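The edited arrays described here still carried at least 1 Cas9 target whose cut window no listed edit touched. They numbered 1416 of 12767 alleles in the library (11.1%, 95% exact binomial interval 10.6 to 11.6%) and held 2268 of 32342 UMIs (7.01%, 6.74 to 7.30%). The shares depended on the rule's settings: with a window of 4 bases around the cut they were 19.98% of alleles and 14.9% of UMIs, and among alleles with at least 5 UMIs 5.80% and 3.24%. The alleles were selected on measured values, the positions of the edits listed for each allele. An allele is a distinct edited array sequence, and a unique molecular identifier (UMI) tags each transcript copied into cDNA, which makes it a count of RNA molecules and not of cells. The cut window is the last 7 bases of a 20-base target, and the 10 windows lie 27 bases apart along an array of 276 bases, with positions counted from 1 at its first base. The other 11351 alleles had all 10 windows touched. Because edit positions chose the alleles, every value below that rests on positions (sites kept, neighbours, number of events, length) is a description, while the UMIs were not used by the rule. All values come from 1 library. There are no replicates and no test was made, and each interval covers counting error only, with alleles or UMIs taken as independent draws.

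The series holds 40 liver samples from 5 mice, labelled by lobe and by a mark of E10, E12 or E15_5, and the library read here is the right inferior lobe of the mouse YK184 marked E15_5. Whether the mark gives the time of induction or of collection is not stated in the labels, nor are the age at collection, the sex or the inducing agent. No unedited control library was analysed here. The other sample of the same mark and lobe was not analysed here, so nothing below compares stages, lobes or animals. Liver markers could not be looked at, since the assay read the array transcript alone.

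DARLIN mice carry a transgenic array of Cas9 targets, and each edit made there is inherited by the daughter cells, which is how lineages are followed. The Cas9 of this line is fused to terminal deoxynucleotidyl transferase, a polymerase that adds bases to open DNA ends without a template, so a repaired cut often gains a few bases. When Cas9 cuts several targets at once, the stretch between the outermost cuts can drop out, and all targets inside it are lost together. A target that is still whole, with the PAM (the short motif next to the target that Cas9 needs), can in principle be cut again, while a changed or lost target usually cannot. The array sits at the Col1a1 locus. Col1a1, the gene of a type I collagen chain, lies at 94936224 to 94953042 on chromosome 11 in GRCm38.p6. Where the array sits relative to the exons of Col1a1 was not stated in the labels, and its sequence was in none of the files read here, so kept targets are given by position and only bases added by the edits are printed.

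The edits of the most abundant alleles with a kept window show what such arrays look like. The largest had 26 UMIs (0.0804% of all UMIs, 0.0525 to 0.118%). It lacked bases 23 to 215 and bases 251 to 268, and between these deletions site 9 was untouched with its target and PAM whole. The second, with 24 UMIs, lacked bases 22 to 45 and had bases 77 to 265 replaced by GG. It kept the window of site 2 with part of the target lost. The third, with 22 UMIs, had a single edit, the loss of bases 23 to 238, and kept site 10 whole. In the fourth, with 13 UMIs, bases 23 to 214 were lost and AA was inserted after base 265, so that site 9 stayed between a large deletion and an edited site 10. These alleles were small beside the largest allele with all windows touched, which had 1589 UMIs.

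The next 6 were smaller still. An allele of 12 UMIs lacked bases 24 to 184 and 237 to 239, carried the substitution C212G, and kept site 10. Another of 12 UMIs had bases 23 to 213 replaced by TAGT and kept sites 9 and 10 whole. The deletion of bases 15 to 261 had 11 UMIs and left 29 bases, with only the window of site 10 and none of the bases before it in the target. In an allele of 10 UMIs, bases 23 to 211 were replaced by A and G was inserted after base 265, with site 9 whole between them. A 4-event allele of 10 UMIs kept the window of site 2 after losing bases 23 to 44, 69 to 173, 181 to 239 and 249 to 265. Of its events, the first had A, the third TAC and the fourth CAT inserted. The deletion of bases 50 to 249, also with 10 UMIs, kept the windows of sites 1 and 10 at the ends of the array, although it took the first base of the target of site 10. Thus the 10 most abundant kept site 9 in 4 alleles, site 10 in 5, site 2 in 2 and site 1 in 1, and no site from 3 to 8.

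The longest stretch of added bases among such alleles with at least 3 UMIs is shown as the upper end of what was added there. It replaced bases 47 to 85 in an allele of 6 UMIs that also lacked bases 103 to 254 and kept the windows of sites 1 and 10. Capitals mark the added bases, 5′ to 3′.
Added bases in place of bases 47 to 85: TATACGCTATA

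Single kept windows predominated. Of the 1416 alleles, 1022 kept exactly 1 window (72.2%, 69.8 to 74.5%), 236 kept 2, 94 kept 3, 39 kept 4, 21 kept 5, 3 kept 6 and 1 kept 7. Over all alleles there were 2062 kept windows. The allele with 7 kept windows had lost only bases 185 to 238 and still carried sites 1 to 6 and site 10. Of the alleles with 6, the deletion of bases 164 to 263 kept sites 1 to 6 and the deletion of bases 90 to 184 kept sites 1 to 3 and 8 to 10. Each of these 3 alleles was seen in 1 UMI.

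The outer part of the array was kept more often than the middle, and site 9 most of all. Its window was intact in 506 of the 1416 alleles (35.7%, 33.2 to 38.3%). Sites 1 and 10 were intact in 281 alleles each (19.8%, 17.8 to 22.02%) and site 2 in 266 (18.8%). Sites 4 and 8 followed with 175 and 174 alleles (12.4% and 12.3%). Site 6 was intact in 119 alleles, site 5 in 107, site 7 in 88 and site 3 in 65 (4.59%, 3.56 to 5.81%). The interval of site 9 lay above those of all other sites. Those of sites 1, 2 and 10 overlapped and lay above the rest, those of sites 4 and 8 overlapped and lay above those of sites 3, 5, 6 and 7, and among the last 4 each overlapped that of the next in order. The repeat units of the array resemble each other, so which unit is listed as kept can depend on where a deletion was placed, and this was not tested.

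The place of site 9 at the top depended on which alleles were counted. In the 154 alleles with at least 3 UMIs, site 10 was intact in 55 (35.7%) and site 9 in 51 (33.1%), and their intervals overlapped. In the 61 with at least 5 UMIs, site 10 was intact in 26 (42.6%, 30.04 to 55.9%) and site 9 in 19 (31.1%, 19.9 to 44.3%). The windows of sites 3 to 7 were then each intact in 2 or 3 alleles. By UMIs, arrays with site 9 intact held 806, those with site 10 572, those with site 1 460 and those with site 2 407. Of the arrays that kept site 10, 64.1% (58.1 to 69.7%) were seen in 1 UMI, the lowest share of the 10 sites, against 74.7% (70.7 to 78.4%) at site 9 and 82.9% (76.4 to 88.1%) at site 4.

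Some sites were mostly kept alone and others mostly in company. Site 9 was the only kept window in 319 of its 506 alleles (63.0%, 58.7 to 67.3%), and site 6 in 68 of 119 (57.1%). Site 3 was kept alone in 13 of 65 alleles (95% interval 11.1 to 31.8%) and site 8 in 55 of 174 (31.6%). The 10 commonest sets of kept sites were site 9 alone (319 alleles), 10 alone (142), 2 alone (131), 1 alone (117), 4 alone (94), 6 alone (68), 8 alone (55), 5 alone (47), sites 8 and 9 together (44) and site 7 alone (36). In all there were 110 distinct sets, 47 of them seen in 1 allele.

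Kept windows that came together were often neighbours. Of the 394 alleles with more than 1 kept window, 194 (49.2%, 44.2 to 54.3%) kept an unbroken row of sites. Sites 1 and 2 were both intact in 92 alleles, which is 32.7% of the alleles keeping site 1 and 34.6% of those keeping site 2. Sites 8 and 9 were both intact in 91 alleles, 52.3% of those with site 8 and 18.0% of those with site 9. The far ends also met: sites 1 and 10 were both intact in 63 alleles, 22.4% of each. This is near the 19.8% of all 1416 alleles in which each of these sites was intact. Site 3 had an intact site 2 on its left in 35 of 65 alleles and an intact site 4 on its right in 32, so its kept window lay mostly inside a longer untouched stretch.

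An untouched window did not always mean a usable target. In 1107 of the 1416 alleles (78.2%, 75.9 to 80.3%) at least 1 kept site had its whole 20-base target and the 3-base PAM free of edits. These are 8.67% of all listed alleles (8.19 to 9.17%) and 5.16% of UMIs (4.92 to 5.41%). The other 309 alleles kept only windows whose target or PAM was changed elsewhere. Wholeness differed by site. It was 91.1% at site 1 (256 of 281, 87.1 to 94.2%), 86.6% at site 9 (438 of 506) and 66.9% at site 10 (188 of 281, 61.1 to 72.4%), with 68.1% at site 6 and 68.2% at site 7. Alleles with a whole target were seen in 1 UMI in 77.6% (75.02 to 80.0%) and the other 309 in 64.7% (59.1 to 70.1%).

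The edits beside a kept site ended exactly at the neighbouring cut more often on the right side than on the left. The predicted cut lies after the fourth base of a window, between bases 22 and 23 at site 1. On the right side, where the next site was edited, the edit began exactly at that next cut for 1002 of 1344 windows. On the left side, it ended exactly at the previous cut for 613 of 1344. Of 919 inner windows with both neighbours edited, 373 lay in the 54-base stretch running exactly from the cut of the previous site to that of the next. At the other extreme, an edit ended on the base before the window for 41 windows and began on the base after it for 33. In 60 alleles every kept window had an edit directly beside it. Just outside the rule, 1333 alleles had a least touched window with 1 base touched and 2034 had 2 bases. In 253 alleles with all windows touched, at least 1 window held a substitution and nothing else.

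At site 9 the typical neighbours were a multi-site deletion on the left and an insertion on the right. A deletion counts here as a join when it takes the windows of 2 or more sites. Site 8 was taken by a join in 302 of the 506 alleles (59.7%, 55.3 to 64.0%), and site 10 carried insertions alone in 356 (70.4%, 66.2 to 74.3%). Both held in 224 alleles (44.3%). For comparison, insertions alone were found at site 10 in 42.9% of alleles with all windows touched, and joins took site 8 in 91.6% of them. A join that takes site 10 also takes site 9, so no join can lie at site 10 beside a kept site 9. The difference at site 10 is therefore partly set by the rule. The left join ended at base 211, directly before the cut of site 8, in 135 of the 302 alleles and at base 210 in 65. The bases inserted at site 10 next to a kept site 9 were GG in 46 of 356 insertions, AG in 44, G in 44 and A in 40, against 11.98% GG, 9.45% AG, 13.1% G and 12.7% A at site 10 in alleles with all windows touched.

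Site 2 was nearly the mirror image. To its left, site 1 carried insertions alone in 125 of 266 alleles (47.0%, 40.9 to 53.2%), against 34.8% of alleles with all windows touched. No join can take site 1 beside a kept site 2, so the rule partly sets this difference too. To its right, site 3 was taken by a join in 179 (67.3%, 61.3 to 72.9%), and that join began at base 77, directly after the cut of site 3, in 139 of the 179. In alleles with all windows touched, joins took site 3 in 93.4%. Insertion on the left with a join on the right made up 84 alleles (31.6%). The inserted base at site 1 was G in 29 of 125 insertions and A in 23.

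The end sites were bounded by joins more often than by small edits. Next to a kept site 1, site 2 was taken by a join in 127 of 281 alleles (45.2%), intact in 92 (32.7%) and changed by insertions alone in 52 (18.5%). Next to a kept site 10, site 9 was taken by a join in 143 of 281 (50.9%), intact in 79 (28.1%) and changed by a local deletion in 29 (10.3%). These joins met site 9 with a wide spread of ends: base 238, directly before its cut, in 33 of 143 alleles, base 237 in 18, and base 258, inside the target of site 10, in 14. The joins beside site 1 began at base 50, directly after the cut of site 2, in 65 of 127 alleles. In alleles with all windows touched, joins took site 2 in 79.4% and site 9 in 79.8%, both more often than beside a kept end site. No join can run over a kept end site, so the rule partly sets this difference.

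Alleles that kept a single inner site differed by site in how many joins they held anywhere in the array. Of the alleles that kept only site 6, 65 of 68 (95.6%) held 2 or more joins, and of those that kept only site 5, 43 of 47 (91.5%). At site 4 this was 73.4%, at site 7 66.7%, at site 3 53.8% (7 of 13) and at site 8 36.4%. Among all alleles that kept the site, alone or not, a join lay directly on both sides in 27.4% at site 4, 20.6% at site 5, 31.9% at site 6 and 19.3% at site 7. Of the alleles that kept only an outer site, 2 or more joins anywhere were held by 15.7% at site 9 and 17.6% at site 2. At sites 1 and 10 this was 23.9% each. With site 1, 2, 9 or 10 kept, joins can lie on 1 side of it only, so position partly sets these shares. Alleles keeping only site 4, 5, 6 or 7 had a median of 4 events and those keeping only site 1 or 10 a median of 2. A single event is 1 unbroken stretch, so an allele with 1 event cannot keep an inner site alone.

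The most abundant examples at each inner site were small. The allele that kept only site 3 with the most UMIs had 9. It held GA inserted after base 22, lacked bases 41 to 65, had bases 104 to 236 replaced by GT and had GGA inserted after base 265. At site 4 the largest had 5 UMIs, with bases 17 to 92 and 154 to 249 lost, GG inserted after base 130 and G after base 265. At site 5 it had 6 UMIs, with bases 18 to 122 replaced by CGACT and bases 143 to 268 lost. At site 6 it had 8 UMIs and lacked bases 23 to 144 and 172 to 187, with AGG in place of bases 212 to 265. These alleles kept the window, and the target or PAM of the kept site was clipped in each of them.

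The same held at sites 7 and 8, where the largest alleles had 4 UMIs each. The first had T in place of bases 23 to 76, lacked bases 104 to 174 and had G in place of bases 209 to 265. The second lacked bases 24 to 40, 50 to 76, 95 to 204 and 239 to 270. For site 1 the largest allele was the deletion of bases 48 to 265 with 9 UMIs, in which site 1 was whole.

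Arrays with a kept window had fewer events than the rest. Both groups had a median of 3 events, but the means were 2.80 and 3.41. A single event made up 167 of the 1416 alleles (11.8%, 10.2 to 13.6%) against 2.33% (2.06 to 2.62%) of alleles with all windows touched, and 6 or more events 2.33% (1.61 to 3.26%) against 7.02% (6.56 to 7.51%). Put the other way, alleles with a kept window were 38.7% of single-event alleles, 17.0% of those with 2 events, 8.54% with 3, 8.24% with 4 and 8.17% with 5. The 167 single-event alleles held 405 UMIs, and 69 kept site 10 and not site 1, 60 kept site 1 and not site 10, and 38 kept both. The 264 single-event alleles with all windows touched held 5868 UMIs. A single join was present in 69.4% of alleles with a kept window and 52.6% of the others, and 2 joins in 27.6% and 39.3%. Joins took a median of 7 windows per allele against 8, and local edits a median of 1 against 2. One allele with a kept window had no join at all: it kept site 9 and had 9 events with 70 added bases in 1 UMI.

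The kinds of events differed in the use of added bases. No added base was found in 227 of the alleles with a kept window (16.0%, 14.2 to 18.0%) and in 5.65% (5.23 to 6.09%) of the others. Joins had no added bases in 57.1% (54.9 to 59.4%) and 50.6% (49.8 to 51.3%). Per event, 37.9% were deletions without added bases against 31.9%, 25.1% were deletions with added bases against 30.7%, and 36.1% were insertions against 36.7%. Insertions had 1 to 3 bases in 95.2% of cases in either group. A and G made up 84.5% of the bases in insertions beside 80.6% in the others. Starts of joins lay within 3 bases of a cut in 84.7% and 83.5%, while ends did so in 79.3% (77.4 to 81.1%) and 83.7% (83.1 to 84.2%). These shares are taken over events or bases, several of which belong to the same allele.

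Arrays with a kept window were longer, which the rule itself partly sets. The remaining length, 276 minus deleted plus inserted bases, had a median of 113 bases (95% order-statistic interval 111 to 115, quartiles 89 and 141, range 27 to 227) against 90 (quartiles 66 and 115, range 26 to 211). It was longer with more kept windows, with a median of 99 bases at 1 kept window, 117 at 2, 139 at 3, 151 at 4 and 168 at 5. Alleles with a kept window were 4.14% of those of 30 to 59 bases, 7.59% at 60 to 89, 11.1% at 90 to 119, 19.7% at 120 to 149 and 27.1% at 150 to 179 bases. Beyond 179 bases there were 19 such alleles and 13 others. The shortest with at least 3 UMIs was the deletion of bases 6 to 254 with 4 UMIs, which left 27 bases and the window of site 10 without the start of its target. The longest with at least 3 UMIs, also with 4 UMIs, had lost bases 25 to 132, carried A236G, and kept sites 6, 7, 8 and 10 whole in 168 bases.

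Arrays with a kept window were found in fewer molecules each. They had 1.60 UMIs per allele on average, with a maximum of 26, against 2.65 and a maximum of 1589, and both medians were 1. A single UMI was found for 1059 of 1416 alleles (74.8%, 72.4 to 77.0%) and for 7000 of 11351 others (61.7%, 60.8 to 62.6%), a difference of 13.1 percentage points (Newcombe interval 10.6 to 15.5). At least 5 UMIs were found for 61 (4.31%) and 990 (8.72%), and at least 10 for 12 (0.847%) and 289 (2.55%). Among alleles with 1, 2, 3, 4 and 5 kept windows the single-UMI share was 74.1%, 75.4%, 77.7%, 82.1% and 71.4%, with overlapping intervals.

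The same direction was seen at each number of events. The single-UMI share was 53.9% (46.0 to 61.6%) against 33.7% (28.03 to 39.8%) for 1 event, 68.0% against 46.1% for 2, 82.2% (78.1 to 85.9%) against 57.9% (56.4 to 59.4%) for 3, and 85.8% against 71.7% for 4. At 5 events it was 85.3% (76.9 to 91.5%) against 78.6% (76.1 to 80.9%) and at 6 or more 84.8% against 82.1%, and the intervals overlapped at both. Mean UMIs at 1 event were 2.43 and 22.2, and the largest of the latter had 1589 of their 5868 UMIs.

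Length moved with UMIs as well, and within length classes the difference was smaller. The single-UMI share was 51.7% (38.4 to 64.8%) against 45.0% (42.3 to 47.6%) at 30 to 59 bases, 58.3% against 53.5% at 60 to 89, and 75.9% (72.0 to 79.5%) against 66.0% (64.6 to 67.4%) at 90 to 119. At 120 to 149 bases it was 85.6% against 81.9% and at 150 to 179 88.9% against 85.8%. The intervals were apart only at 90 to 119 bases. With length and number of events held together, 7 classes had at least 20 alleles in both groups. The share was higher with a kept window in 6 of them, with intervals apart in 4. The exception was 2 events at 30 to 59 bases, with 40.0% (19.1 to 63.9%) of 20 alleles against 45.4% (42.4 to 48.5%). Of the 4 classes with intervals apart, 1 event at 30 to 59 bases was barely so. There the share was 59.0% (42.10 to 74.4%) of 39 alleles against 35.6% (29.5 to 42.06%). How far length, number of events or identical edits made in different cells account for the difference was not tested.

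Many alleles with a kept window reappeared inside larger sets of edits. For 345 of the 1416 alleles (24.4%, 22.1 to 26.7%), all listed events were also found together, with further events, in at least 1 other allele. With the 4-base window the share was 14.0%. Among alleles with all windows touched this was so for 101 of 11351 (0.890%, 0.725 to 1.08%). An allele with all windows touched has no free window left for a further edit, so part of this gap is built into the rule. The share was lower at more events. It was 68.3% (60.6 to 75.2%) at 1 event, 38.5% (34.2 to 42.9%) at 2, 7.87% at 3 and 3.54% at 4, against 4.55%, 1.49%, 0.759% and 0.516% in the others. There were 4652 pairs of such an allele and a larger one. In 4642 of them (99.8%) the further events touched at least 1 of the kept windows, and in 4275 (91.9%) the larger allele kept no window. Any event outside all windows was rare, found in 3.39% of alleles with a kept window and 4.14% of the others. A further event therefore mostly had to fall on a free window, and the 99.8% is largely set in advance. The pairs are not independent, since the deletion of bases 185 to 238 alone gave 291 of them. Identical joins can arise in different cells, so a shared event does not show shared descent.

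Where a single further event fell on a kept window, it was most often an insertion. Among 1688 such pairs, 1022 (60.5%) added an insertion, 305 (18.1%) a join over several kept windows, 252 (14.9%) a local deletion, 88 (5.21%) a local deletion with added bases and 21 (1.24%) a substitution. In 199 of the 345 alleles (57.7%, 52.3 to 63.0%) at least 1 larger allele had more UMIs than the allele it contained. Alleles found inside a larger one had a single UMI in 59.7% (54.3 to 64.9%) and the remaining 1071 in 79.6% (77.1 to 82.0%). Of the 345, however, 114 had 1 event and 190 had 2. Over all alleles with a kept window the single-UMI share was 53.9% at 1 event, 68.0% at 2, 82.2% at 3 and 85.8% at 4. How far the number of events accounts for the difference was not tested.

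The join over bases 23 to 238 gave the fullest example. Alone, with site 10 intact, it had 22 UMIs. It occurred with further edits in 77 alleles holding 819 UMIs, 74 of which added 1 event. Insertions were added in 50 alleles with 704 UMIs, deletions in 13 with 88 UMIs, deletions with added bases in 8 with 19 UMIs and substitutions in 3 with 5 UMIs. After base 265, at the cut of site 10, the commonest additions were GG (127 UMIs), A (101 UMIs), G (95 UMIs), AG (74 UMIs) and GA (50 UMIs). The array with the untouched site 10 thus had fewer UMIs than each of these 5 alleles.

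Other contained alleles among the most abundant had few larger counterparts. The allele with 26 UMIs described first was found with further edits once, with bases 1 to 4 also lost, in 1 UMI. The loss of bases 23 to 214 with AA after base 265 (13 UMIs) had 2 larger alleles of 1 UMI each, 1 of which lacked bases 226 to 251 and the other had G inserted after base 238. The deletion of bases 15 to 261 (11 UMIs) had 4 larger alleles with 9 UMIs, the largest with C inserted after base 266 (5 UMIs). The replacement of bases 23 to 211 by A with G after base 265 (10 UMIs) had 8 larger alleles with 19 UMIs, the largest with A inserted after base 239 (7 UMIs). In the last 3 of these the edits named fell on the window that the smaller allele had kept. Unlike the deletion of bases 23 to 238, each of these 4 alleles had more UMIs than any of its larger ones.

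Single joins with many larger alleles were themselves seen in few molecules. This was not particular to them, since the 167 single-event alleles with a kept window had a median of 1 UMI and a mean of 2.43. The loss of bases 185 to 238, with 7 kept windows and 1 UMI, was part of 291 larger alleles with 463 UMIs, and 263 of them kept no window. Loss of bases 131 to 265 kept sites 1 to 4 and had 6 UMIs, beside 239 larger alleles with 436 UMIs. Loss of bases 158 to 265 kept sites 1 to 5 and had 3 UMIs, beside 188 larger alleles with 386 UMIs. For the deletion of bases 50 to 238, which kept sites 1 and 10, 1 UMI stood beside 166 larger alleles with 377 UMIs. The share of UMIs without further edits for these 4 joins was 0.216% (0.00546 to 1.19%), 1.36% (0.4998 to 2.93%), 0.771% (0.159 to 2.24%) and 0.265% (0.00670 to 1.47%). For the deletion of bases 23 to 157, which kept sites 7 to 10, it was 2.69% (0.994 to 5.76%), with 6 UMIs beside 217. Of the 12 single joins with the most larger alleles, these 5 ranked 1 to 4 and 7. They were chosen from these 12 after their values were seen, and not by rank alone. Over all 12 the share ran from 0.216% to 2.69%. Ranking by the number of larger alleles favours joins with many UMIs in larger alleles, so the low shares describe that choice.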

How the data were processed

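Array transcripts of liver RNA were copied with a UMI primer and amplified by nested PCR, per the labels' protocols. The submitters' processing notes name mm10. Allele caller and filters: not given in the sources used here. For this library the authors deposited 2 text lists without headers, the edits of each allele and its 12-base UMIs, with no counts, scores or reads. UMIs per allele were counted from the second list. Read depth is unknown, and 0 UMIs stood under several alleles.

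A deletion or substitution touched a window when it changed any of its bases, an insertion when both flanking bases lay in it. Targets, cuts and PAMs were placed by general knowledge of the array. Intervals are exact binomial (Clopper-Pearson), from order statistics for medians, and after Newcombe for the difference of shares. They leave out PCR and sequencing error.

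Alleles named were the 10 with the most UMIs, the largest keeping each site alone, the 3 with the most kept windows, the extremes of length and of inserted stretch at 3 or more UMIs, and the 5 largest contained in another, with all 10 sites and the 10 commonest sets. The single joins and the allele without joins were named after their values were seen. The alleles, the rule and the lists were chosen with earlier results of these data known. Alternatives were UMI minimums of 2, 3 and 5, the whole target, the target with PAM, a 4-base window, substitutions left out, insertions at window edges, folding of alleles 1 inserted base apart, UMI weights, and 2 or 3 events only. The computation was tested on simulated alleles, with Python 3.11.15 and scipy 1.17.1.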

Additional observations from a re-analysis of the deposited data

How the results depend on the processing

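Under 11 alternative settings the 9 quantities gave 89 values, of which 30 stayed inside the reported interval and 59 lay outside it. Counting insertions at the window edge changed no value. With minimums of 2, 3 and 5 UMIs, alleles with a kept window were 7.58%, 6.31% and 5.80% of alleles and held 4.98%, 4.07% and 3.24% of UMIs, with medians of 2 events each and of 90, 87 and 87 bases. Then 29.7%, 30.5% and 31.1% were contained in a larger allele. Site 9 was kept in 33.1% and 31.1% at 3 and 5 UMIs, and 1 window alone in 67.2% at 5 UMIs. With the whole target and with the target and PAM, the shares were 8.97% and 8.67% of alleles, 5.33% and 5.16% of UMIs, 69.4% and 68.8% with 1 kept site, 38.6% and 39.6% with site 9, 29.2% and 30.2% contained, and 77.5% and 77.6% with 1 UMI (15.8 percentage points above the others in both). The median length was 116 in both, and the median of events was 2 with the PAM. With the 4-base window, which fewer edits touch, the corresponding values were 19.98% of alleles, 14.9% of UMIs, 77.3%, 27.4%, 14.0%, 70.4% (9.10 points above) and 102 bases. Without substitutions they were 13.1% of alleles, 8.26% of UMIs, 74.7%, 33.0% and 20.7%. Folding 1773 alleles gave 11.9% of alleles and 19.3% contained. Weighting by UMIs gave 7.01% of molecules, 32.0% contained, and medians of 2 events and 94 bases. With 2 or 3 events only, they were 11.8% of alleles, 7.48% of UMIs, 41.1% with site 9, 100 bases and a single-UMI share 20.7 points above the others. Beyond fewer alleles being counted, the causes were not tested. Single-UMI shares could not be computed under a UMI minimum, which leaves no such allele, or with UMI weights. The number of alleles limits precision in small classes, such as the 61 alleles with a kept window and at least 5 UMIs.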

Other observations

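The joins in arrays with a kept window spread over many pairs of sites, here given by the first and the last window they took. Of 1892 joins in these arrays, 175 took sites 1 to 8 (9.25%, against 5.12% of 17756 joins in arrays with all windows touched), 129 took sites 1 to 3 (6.82% against 4.80%), 122 took sites 1 to 7 (6.45% against 3.88%) and 102 took sites 3 to 10 (5.39% against 5.33%), which were the 4 commonest pairs. Joins over sites 1 to 9 made up 2.22% and 5.52%. Since a join cannot cover a kept site, the rule shapes these shares, and they are given as values.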
